A study of Rattus norvegicus with 12 samples.

Results

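The genes of cholesterol and fatty acid synthesis were followed through 4 states of rat PAC1 cells, a pulmonary artery smooth muscle cell (SMC) line. The members were chosen by name, with earlier results of these data known, as a list of 32 gene symbols of these pathways and their regulators. All 32 were found among the 33294 genes of the count table. The list holds 7 genes of the mevalonate steps, 11 of the squalene and sterol steps, 1 sterol transport gene and 8 genes of fatty acid synthesis and desaturation. It also holds 5 genes of the SREBP transcription factors and of proteins that control them, here called SREBP regulators. It does not hold every gene of either pathway.

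The data are 12 poly(A)-selected RNA-Seq libraries in 4 groups of 3. D1 and P are PAC1 cells treated with control siRNA, D1 in the more differentiated culture (PAC1-D, split once per week) and P in the more proliferative one (PAC1-P, split more often). RBPMS KD1 and MBNL KD are PAC1-D cells treated with siRNA against RBPMS, or against both MBNL1 and MBNL2, which are RNA-binding proteins that regulate splicing. All groups are thus 1 cell line that went through siRNA transfection, and P differs from D1 in culture routine as well as in phenotype. The study's methods describe its siRNA conditions as repeated in biological replicates. The labels do not say which cultures the 3 libraries of a group came from, and p-values measure the spread between these libraries.

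Cholesterol is built in the cytosol and endoplasmic reticulum from acetyl-CoA: the mevalonate steps give isoprenoid units, which are joined to squalene, closed to lanosterol and trimmed to cholesterol. Fatty acids are built from the same acetyl-CoA by carboxylation, elongation and desaturation. Both pathways are transcribed under the SREBP factors, which are held in the endoplasmic reticulum with SCAP and the INSIG proteins when sterols are plentiful and are carried to the Golgi and cut free when sterols run low. SREBP2, encoded by Srebf2, is known mainly for cholesterol genes and SREBP1, encoded by Srebf1, mainly for fatty acid genes.

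The SREBP factors act on promoters together with NF-Y, which binds CCAAT boxes, and Sp1, which binds GC boxes. RefSeq promoters (GRCr8, 250 bases before to 50 bases after the annotated start) were matched by symbol for 25 of the 32 members. Pmvk, Fdft1, Sqle, Stard4, Acaca, Fasn and Elovl6 had no entry. Searched on both strands, CCAAT was found in 19 of these 25 members (76.0%), against 37.5% of 33469 promoters of this length and 37.0% of 14193 promoters of genes tested in P against D1. The GC box GGGCGG was found in 21 members (84.0%), against 33.1% of all promoters and 55% of those of tested genes. The E-box CACGTG was found in 3 members, Sc5d, Scap and Insig1 (12%), against 6.42% and 8.45%. The sterol element searched, TCACNCCAC, was found in 0 of the 25, against 1.12% and 1.06%, which says only that these letters are not in these windows. No matches of different motifs shared a base in the members' promoters.

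The promoters printed here are those of the 2 members with the most CCAAT boxes, Mvk and Nsdhl with 5 each, and of Mvd and Fdps, the 2 mevalonate genes that fell past both thresholds upon MBNL knockdown. Capitals mark CCAAT on either strand, read as ATTGG where it lies on the opposite strand. Each sequence runs 5′ to 3′ on the strand of its gene, and the counts themselves were made on another assembly, mRatBN7.2.
Mvk, chr12:47819454-47819753, minus strand: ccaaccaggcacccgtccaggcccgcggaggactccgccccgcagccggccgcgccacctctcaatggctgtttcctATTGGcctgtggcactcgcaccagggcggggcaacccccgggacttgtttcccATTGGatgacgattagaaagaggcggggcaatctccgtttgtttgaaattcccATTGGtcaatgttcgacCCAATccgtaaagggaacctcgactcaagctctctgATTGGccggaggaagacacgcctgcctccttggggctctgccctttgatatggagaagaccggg
Nsdhl, chrX:155817110-155817409, plus strand: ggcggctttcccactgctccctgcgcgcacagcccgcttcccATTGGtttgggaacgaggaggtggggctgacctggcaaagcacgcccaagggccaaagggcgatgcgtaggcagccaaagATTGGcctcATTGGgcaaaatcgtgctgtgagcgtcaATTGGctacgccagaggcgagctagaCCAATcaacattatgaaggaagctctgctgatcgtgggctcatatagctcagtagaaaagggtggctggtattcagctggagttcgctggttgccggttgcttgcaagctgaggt
Mvd, chr19:67414925-67415224, minus strand: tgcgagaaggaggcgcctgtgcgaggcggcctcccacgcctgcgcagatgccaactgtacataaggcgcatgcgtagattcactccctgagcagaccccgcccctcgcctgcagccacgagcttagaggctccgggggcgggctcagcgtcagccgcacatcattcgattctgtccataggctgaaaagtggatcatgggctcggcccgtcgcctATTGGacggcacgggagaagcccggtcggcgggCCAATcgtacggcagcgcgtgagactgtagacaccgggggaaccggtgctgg
Fdps, chr2:176804767-176805066, minus strand: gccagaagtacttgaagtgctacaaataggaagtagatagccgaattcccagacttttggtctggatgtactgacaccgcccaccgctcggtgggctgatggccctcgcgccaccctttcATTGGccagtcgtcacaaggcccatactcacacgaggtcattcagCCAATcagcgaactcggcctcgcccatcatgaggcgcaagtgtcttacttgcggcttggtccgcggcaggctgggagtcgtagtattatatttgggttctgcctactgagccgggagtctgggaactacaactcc
In Mvk the boxes start at positions -173, -120, -67, -50 and -14 from the annotated start, and in Nsdhl at -208, -128, -119, -91 and -65. Fdps has boxes at -130 and -85, and Mvd at -35 and -2. In P, Mvk rose (0.17 ± 0.042, log2 fold change and SE) and Nsdhl fell (-0.13 ± 0.03), and both fell in the knockdowns.

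Counts per library totalled 80842635 to 90771289, and 3 counts, taken as the limit of detection, correspond to 0.0331 to 0.0371 CPM, which covers counting error only. All members were above it in every library: the lowest scaled count of any member was 71.6, for Tm7sf2, and the lowest of any other was 682. MBNL KD replicate 3 stood apart, with the lowest total count and a chi-square per gene of 12.8 against the other MBNL KD libraries, where the other replicate pairs had 3.68 to 7.70. Counts of members in MBNL KD are also given without it. Scaled counts are counts divided by the TMM-normalised library size and brought to a common depth. They are not per length, so levels are compared between libraries for 1 gene and not between genes. Unless stated otherwise, rose and fell mean an adjusted p under 0.05 (edgeR's quasi-likelihood test, Benjamini-Hochberg adjustment over all genes tested), and both thresholds mean that the size of the log2 fold change was also above 1.

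The labels were checked on the targeted genes. Rbpms fell by 2.00 on the log2 scale in RBPMS KD1, and it also fell by 3.99 in P. Mbnl1 fell by 2.07 and Mbnl2 by 1.75 in MBNL KD, and Mbnl2 also fell by 0.94 in P. Smooth muscle markers were present in D1, where 8 markers summed to 800700 to 841500 scaled counts, against 17290 to 18330 in P, 401800 to 416800 in RBPMS KD1 and 643800 to 653000 in MBNL KD. Most of the D1 sum is Acta2 and Tagln, and the markers did not all follow it: Des rose in P (2.39), RBPMS KD1 (0.64) and MBNL KD (1.41), and Myh11 (0.54) and Cnn1 (0.12) rose in MBNL KD, where 3 of the 8 rose and 5 fell. Of 6 adipocyte markers, Plin1, Cidec and Fabp4 had no count in D1, Adipoq and Lep lay between 0 and 14.3 scaled counts there, and Pparg lay between 45.4 and 70.3. The 6 adipocyte markers summed to 51.5 to 84.6 in D1, 26.6 to 30.3 in P, 95.1 to 96.8 in RBPMS KD1 and 102 to 118 in MBNL KD. The 6 endothelial markers summed to 25.8 to 30.6, 408 to 498, 66.8 to 70.6 and 30.6 to 54.4 in the same order, of which Cdh5 had no count outside P, where it lay between 116 and 131, and Tek was highest in P, at 280.1 to 349, while Pecam1, Tie1, Kdr and Emcn were at 0 to 13.9 in all libraries. The 6 macrophage markers summed to 5105 to 5470 in D1, 4281 to 4435 in P, 7429 to 7661 in RBPMS KD1 and 4604 to 4879 in MBNL KD, nearly all of it Cd14, while Adgre1, Ptprc, Aif1 and Itgam were at 0 to 4.74 and Csf1r at 11.4 to 61.3 in all libraries. The part of these markers in the members' values was not tested.

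All 32 members passed the filter on low counts in every comparison. In P against D1, 28 members rose and 3 fell, where 40.4% of all 16814 genes tested rose and 37.6% fell. Past both thresholds, 9 members rose and 1 fell, against 16.4% and 11.2% of all genes. The members' median log2 fold change was 0.60, against 0.02 over all genes. In RBPMS KD1 against D1, 22 members fell and 5 rose, where 29.5% of all 15904 genes fell and 29.5% rose. Past both thresholds, 2 members fell and none rose in edgeR, against 1.62% and 3.06% of all genes. At an unadjusted p under 0.05, 6 members were higher, and DESeq2 and limma also gave 0 past both thresholds. The members' median was -0.19, against 0.0043 over all genes. The 5 that rose in RBPMS KD1 were Srebf1, Acss2, Lss, Dhcr7 and Scap, of which the last 3 rose by 0.11 or less on the log2 scale. The number of rises was 2 without D1 replicate 1 or RBPMS KD1 replicate 2, and 3 without D1 replicate 2, D1 replicate 3 or RBPMS KD1 replicate 3.

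In MBNL KD against D1, 30 members fell and 1 rose, where 33.7% of all 16053 genes fell and 33.8% rose. Past both thresholds, 6 members fell and none rose, against 4.14% and 6.1% of all genes. At an unadjusted p under 0.05, 1 member was higher, and DESeq2 and limma also gave 0 past both thresholds. The members' median was -0.56, against 0.01 over all genes. In the direct comparison of MBNL KD with RBPMS KD1, which does not use D1, 23 members were lower in MBNL KD and 7 higher, where 34.5% and 35.1% of all 16111 genes were. Past both thresholds 4 were lower and 1 higher, against 6.03% and 5.88%. Without MBNL KD replicate 3, 29 members fell against D1, 5 of them past both thresholds, and 3 were lower than in RBPMS KD1 past both thresholds. The comparisons with D1 share the D1 libraries and are given side by side for that reason.

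Together the members took 0.351% ± 0.00474 of all counts in D1 (SD, n = 3), 0.600% ± 0.0121 in P, 0.284% ± 0.0035 in RBPMS KD1 and 0.252% ± 0.00453 in MBNL KD. The 3 libraries of a group lay close together and the 4 groups did not overlap, from 0.2465% to 0.2549% in MBNL KD up to 0.591% to 0.614% in P. These are shares of unscaled counts. Scaled sums of the members were 318800 to 330800 in D1 and 487400 to 506100 in P. In RBPMS KD1 they were 257000 to 261600, and in MBNL KD 218200 to 227200. In bulk RNA, fewer cells that express a gene and less of its RNA per cell cannot be told apart. A list of 5 genes of cycling cells (Mki67, Top2a, Pcna, Mcm2 and Ccnb1) moved with the members: it summed to 65930 to 67560 scaled counts in D1, 81890 to 83970 in P, 54330 to 56070 in RBPMS KD1 and 43590 to 44070 in MBNL KD. Of its genes, 4 of 5 rose in P, 4 of 5 fell in RBPMS KD1 and 5 of 5 fell in MBNL KD, against 40.4%, 29.5% and 33.7% of all genes. Its part in the members' values was not tested.

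**Figure D1:**
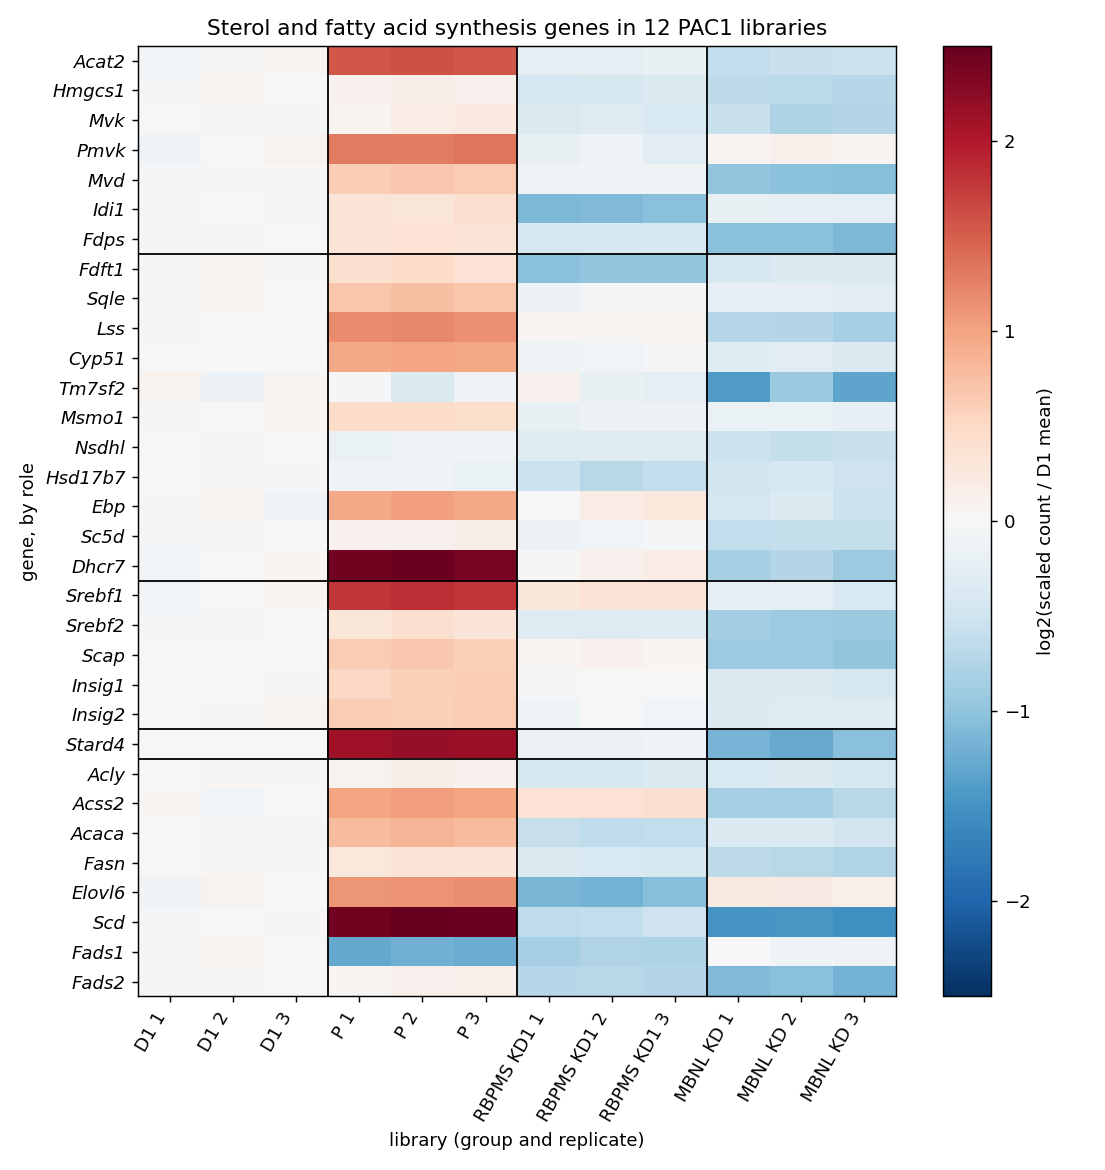
Heat map of the log2 ratio of each of the 32 members' scaled counts in each of the 12 libraries to that gene's D1 mean, with members in rows by role (mevalonate, sterol, SREBP regulators, transport, fatty acid) and libraries in columns by group. Red is above and blue below the D1 mean. The P columns are mostly red, with Fads1 blue, and the MBNL KD columns are mostly blue, with Elovl6 and Pmvk pale.

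The regulators come first, since they act on the other members. All 5 rose in P and all 5 fell in MBNL KD, while in RBPMS KD1 2 rose, 1 fell and 2 did not pass. Of all genes tested, 40.4% rose in P and 33.7% fell in MBNL KD, and in RBPMS KD1 29.5% rose and 29.5% fell, so that the RBPMS KD1 counts of the regulators lie near the background. Their median log2 fold change was 0.62 in P, 0.0001 in RBPMS KD1 and -0.38 in MBNL KD. Srebf1, which encodes SREBP1, had scaled counts of 2883, 2987 and 3174 in D1, 10350, 10800 and 10410 in P, 3662, 3801 and 3765 in RBPMS KD1 and 2590, 2542 and 2306 in MBNL KD. Its P libraries lay far above all others, RBPMS KD1 lay above D1, and MBNL KD lay below D1, with no overlap between groups. Srebf1 rose 3.48-fold in P (1.80 ± 0.033, log2 fold change and SE, adjusted p = 5.5e-31) and rose in RBPMS KD1 (0.31 ± 0.039), and it fell in MBNL KD (-0.28 ± 0.045). It overlaps Rai1 by 596 bases in RefSeq, and whether reads were assigned by strand is not given in the sources used here.

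Srebf2, which encodes SREBP2, had 15120, 15720 and 15210 in D1, 19000, 20150 and 19240 in P, 12310, 12240 and 12270 in RBPMS KD1 and 8430, 8224 and 8082 in MBNL KD. The 4 groups did not overlap, with P highest, then D1, then RBPMS KD1, then MBNL KD. Srebf2 rose in P by 0.34 ± 0.027, where Srebf1 rose by 1.80. It fell to 79.9% of the D1 mean in RBPMS KD1 (-0.32 ± 0.026) and to 53.7% in MBNL KD (-0.90 ± 0.024, adjusted p = 1.3e-23). In RBPMS KD1 Srebf1 rose and Srebf2 fell, and in MBNL KD both fell.

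Scap, which escorts the SREBP precursors to the Golgi, had 7872, 7816 and 7948 in D1, 12270, 12610 and 11860 in P, 8150, 8438 and 8139 in RBPMS KD1 and 4178, 4211 and 3974 in MBNL KD. MBNL KD lay apart at the bottom, and RBPMS KD1 lay just above D1. Scap fell in MBNL KD to 52.3% of D1 (-0.93 ± 0.029) and was lower than in RBPMS KD1 past both thresholds (-1.004 ± 0.031, adjusted p = 1.9e-22), a call that was lost at -0.99 without MBNL KD replicate 3 and at -0.95 under quantile normalization. Its rise in RBPMS KD1 was small (0.067 ± 0.028, adjusted p = 0.043), and it missed the threshold without D1 replicate 1, 2 or 3 or RBPMS KD1 replicate 2, at adjusted p of 0.066 to 0.19.

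Insig1 and Insig2 encode the proteins that retain SCAP when sterols are plentiful, and Insig1 is itself a well known SREBP target. Insig1 had 15080, 15170 and 15580 in D1, 21980, 23160 and 23360 in P, 15030, 15340 and 15410 in RBPMS KD1 and 11810, 11920 and 11410 in MBNL KD. P lay above and MBNL KD below the other groups, and RBPMS KD1 and D1 overlapped, with a log2 difference of 0.0001 ± 0.026 (adjusted p = 1). Insig1 rose in P by 0.57 ± 0.026 and fell in MBNL KD (-0.38 ± 0.024). Insig2 had 1438, 1411 and 1492 in D1, 2259, 2191 and 2241 in P, 1335, 1432 and 1378 in RBPMS KD1 and 1148, 1157 and 1166 in MBNL KD. RBPMS KD1 overlapped D1, and P lay above and MBNL KD below both. It rose in P (0.62 ± 0.046) and fell in MBNL KD (-0.32 ± 0.052), and the RBPMS KD1 difference did not pass (-0.065 ± 0.051, adjusted p = 0.29).

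**Figure D2:**
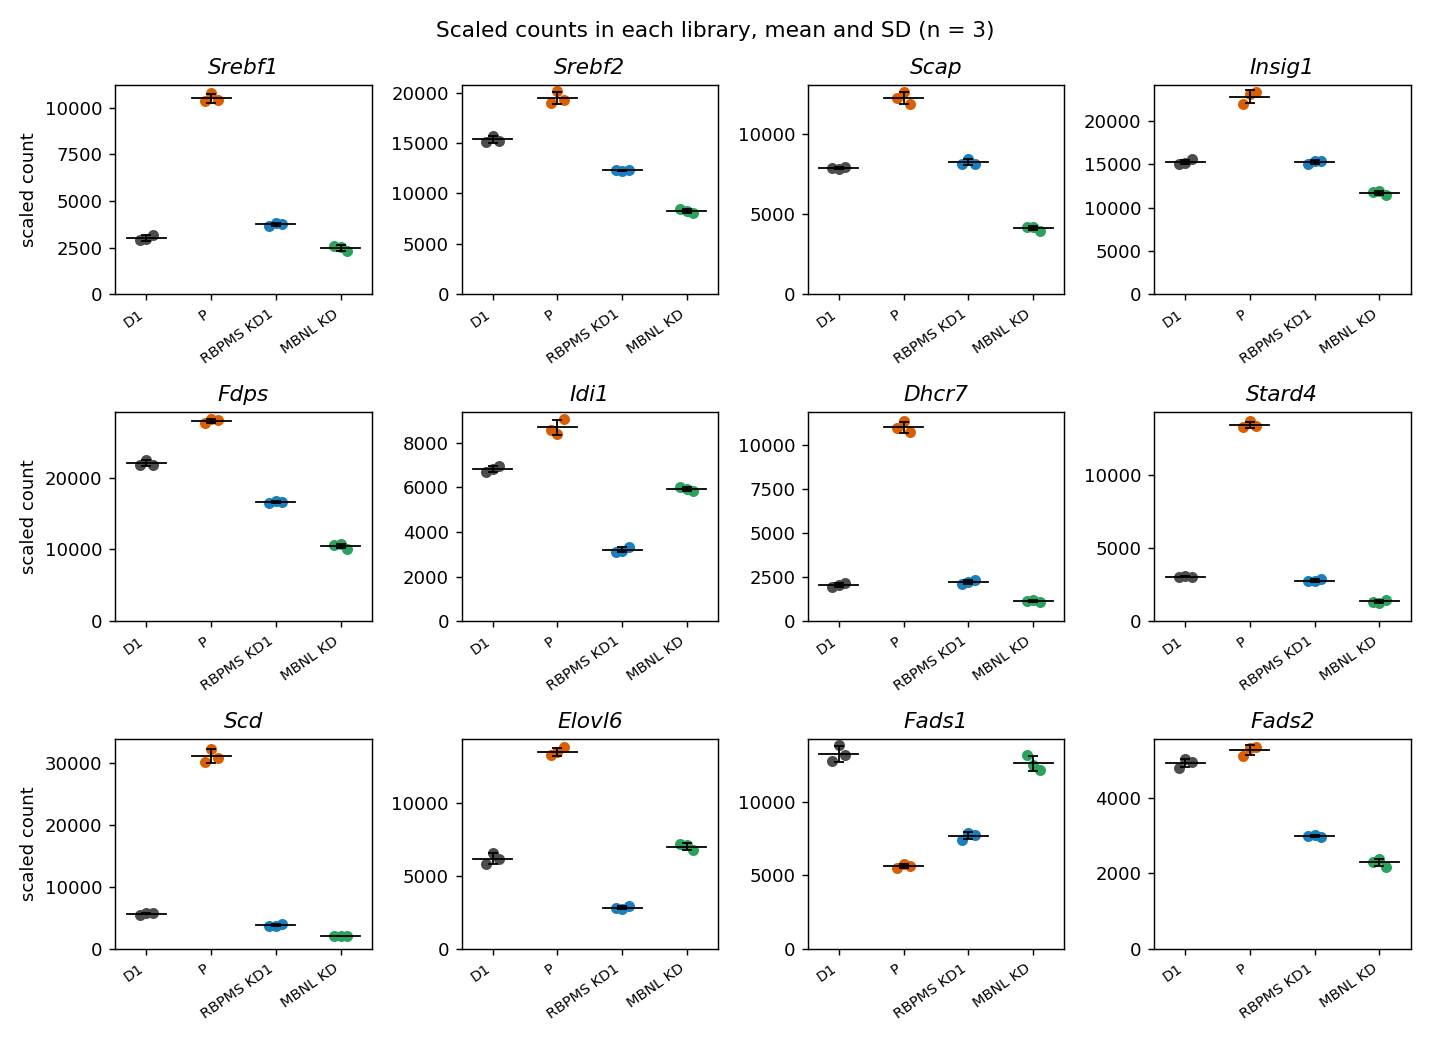
Scaled counts (y axis, from 0) of 12 members in each library of the 4 groups (x axis). Points are libraries, long lines the group mean and bars the SD over 3 libraries. Srebf1, Dhcr7, Stard4, Scd and Elovl6 are highest in P, Idi1 and Elovl6 are lowest in RBPMS KD1, and Scap, Fdps, Stard4, Scd and Fads2 are lowest in MBNL KD.

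The mevalonate steps turn acetyl-CoA into farnesyl diphosphate. All 7 genes rose in P, 2 of them past both thresholds, all 7 fell in RBPMS KD1, 1 of them past both, and 6 of 7 fell in MBNL KD, 2 of them (Mvd and Fdps) past both, of which Mvd was lost without MBNL KD replicate 3 and both were lost under quantile normalization and with limma. The shares of all genes were 40.4% higher in P, 29.5% lower in RBPMS KD1 and 33.7% lower in MBNL KD, and past both thresholds 16.4%, 1.62% and 4.14%. The median of the 7 was 0.34, -0.35 and -0.67 in the same order. In RBPMS KD1 the falls of Pmvk (adjusted p = 0.089) and Mvd (0.073) did not pass with limma, nor that of Mvd under quantile normalization (0.09). Acat2, the thiolase that joins acetyl-CoA units, had 7371, 7850 and 7990 in D1, 22780, 23260 and 22590 in P, 6730, 6559 and 6801 in RBPMS KD1 and 5054, 5288 and 5360 in MBNL KD. P lay apart at the top, and the other groups ran D1, RBPMS KD1, MBNL KD without overlap. Acat2 rose 2.95-fold in P (1.56 ± 0.028, adjusted p = 3.4e-31) and fell in RBPMS KD1 (-0.21 ± 0.032) and in MBNL KD (-0.56 ± 0.032).

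Pmvk, phosphomevalonate kinase, had 2190, 2356 and 2512 in D1, 5797, 5686 and 5939 in P, 2080, 2196 and 1947 in RBPMS KD1 and 2480, 2577 and 2425 in MBNL KD. P was again apart, while MBNL KD overlapped D1. It rose 2.46-fold in P (1.298 ± 0.039), fell in RBPMS KD1 (-0.18 ± 0.051, although the libraries overlapped), and did not pass in MBNL KD (0.086 ± 0.046, adjusted p = 0.1, and 0.021 without D1 replicate 3). Mvd, mevalonate diphosphate decarboxylase, had 3095, 3255 and 3246 in D1, 4871, 5082 and 4972 in P, 2972, 2994 and 3022 in RBPMS KD1 and 1623, 1579 and 1536 in MBNL KD. The MBNL KD libraries were below all others, at 49.4% of D1 (-1.02 ± 0.042, adjusted p = 6.4e-19), and without MBNL KD replicate 3 the log2 fold change was -0.997, just short of the fold threshold. Mvd rose in P (0.63 ± 0.035). Its fall in RBPMS KD1 was small (-0.093 ± 0.037, adjusted p = 0.036) and missed the threshold without D1 replicate 2 or 3 or RBPMS KD1 replicate 1 or 2, at adjusted p of 0.077 to 0.11.

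Idi1, the isomerase that makes the reactive isoprenoid unit, had 6708, 6840 and 6948 in D1, 8580, 8407 and 9079 in P, 3122, 3167 and 3329 in RBPMS KD1 and 6016, 5937 and 5832 in MBNL KD. RBPMS KD1 lay apart at the bottom and MBNL KD lay between it and D1. Idi1 fell to 46.9% of D1 in RBPMS KD1 (-1.09 ± 0.034, adjusted p = 7.1e-21) and by less in MBNL KD (-0.20 ± 0.028), and the direct comparison had it 1.84-fold higher in MBNL KD (0.88 ± 0.034). Idi1 overlaps Wdr37 by 100 bases in RefSeq. In all, 11 members overlap another RefSeq gene: Fads2 by 4720 and Fdft1 by 3825 bases with a lncRNA, Acaca, Srebf1 and Idi1 with protein-coding genes, and Acat2, Hmgcs1, Fdps, Srebf2, Insig1 and Acss2 with a non-coding RNA by 69 to 466 bases. The part of shared reads in their values was not tested.

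Fdps, farnesyl diphosphate synthase, whose product feeds sterols and other isoprenoids alike, had 21680, 22460 and 21790 in D1, 27570, 28140 and 27980 in P, 16480, 16730 and 16650 in RBPMS KD1 and 10640, 10690 and 10090 in MBNL KD. The 4 groups did not overlap, with MBNL KD lowest and RBPMS KD1 next. Fdps fell to 47.6% of D1 in MBNL KD (-1.07 ± 0.026, adjusted p = 1.3e-24), to 75.6% in RBPMS KD1 (-0.40 ± 0.025), and rose in P (0.34 ± 0.024). Under quantile normalization the MBNL KD value was -0.99, and for Mvd it was -0.97. Hmgcs1, HMG-CoA synthase, ran 26260 ± 1062 in D1 (mean and SD, n = 3), 28510 ± 562 in P, 19900 ± 576 in RBPMS KD1 and 16440 ± 327 in MBNL KD, with log2 changes of 0.11, -0.40 and -0.67. Under quantile normalization the change of Hmgcs1 in P was 0.28. Mvk, mevalonate kinase, changed by 0.17, -0.35 and -0.67.

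The squalene and sterol steps close the chain to a ring and finish cholesterol. Of 11 genes, 8 rose and 2 fell in P, 6 fell and 2 rose in RBPMS KD1, and all 11 fell in MBNL KD. Of all genes, 40.4% rose and 37.6% fell in P, 29.5% fell and 29.5% rose in RBPMS KD1, and 33.7% fell in MBNL KD. The median of the 11 was 0.45, -0.088 and -0.47 in these comparisons. Dhcr7, which acts in the last reductions to cholesterol, had 1973, 2083 and 2155 in D1, 10970, 11380 and 10770 in P, 2116, 2218 and 2370 in RBPMS KD1 and 1164, 1242 and 1099 in MBNL KD. P was far above all other libraries, and MBNL KD lay below D1 while RBPMS KD1 overlapped it. Dhcr7 rose 5.32-fold in P (2.41 ± 0.035, adjusted p = 3.5e-34) and fell in MBNL KD (-0.82 ± 0.053). Its rise in RBPMS KD1 was small (0.11 ± 0.048, adjusted p = 0.045) and missed the threshold without D1 replicate 1 or 2 or RBPMS KD1 replicate 2 or 3, at adjusted p of 0.07 to 0.27.

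Lss, lanosterol synthase, had 6303, 6472 and 6455 in D1, 14550, 14820 and 14100 in P, 6655, 6757 and 6789 in RBPMS KD1 and 3936, 3849 and 3629 in MBNL KD. P was highest and MBNL KD lowest, and RBPMS KD1 was just above D1. Lss rose 2.25-fold in P (1.17 ± 0.028) and fell in MBNL KD (-0.75 ± 0.032). The RBPMS KD1 rise was 0.073 ± 0.029 (adjusted p = 0.034) and missed the threshold when any library other than RBPMS KD1 replicate 1 was left out, at adjusted p of 0.051 to 0.16.

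Fdft1, squalene synthase, had 8405, 9025 and 8509 in D1, 11360, 11950 and 11150 in P, 4173, 4382 and 4408 in RBPMS KD1 and 6588, 6813 and 6769 in MBNL KD. RBPMS KD1 lay apart at the bottom, with a log2 fold change of -0.999 ± 0.033 (adjusted p = 3.1e-20). That is just short of the fold threshold, and DESeq2, other size factors, no filter and the omission of D1 replicate 1 or 3 or of RBPMS KD1 replicate 2 or 3 put it past the threshold, furthest without D1 replicate 1 (-1.02). Fdft1 fell by less in MBNL KD (-0.36 ± 0.029), and was higher there than in RBPMS KD1 (0.63 ± 0.032).

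Tm7sf2, a sterol reductase, was the member with the lowest counts, and its values were 201, 171 and 199 in D1, 183, 148 and 179 in P, 204, 168 and 163 in RBPMS KD1 and 71.6, 99.9 and 76.6 in MBNL KD. The MBNL KD libraries were below all others, and the other 3 groups overlapped. Tm7sf2 fell in MBNL KD to 43.5% of D1 (-1.20 ± 0.16, adjusted p = 1.7e-07), with the largest standard error of any member in that comparison. It did not pass in P (-0.17 ± 0.14, adjusted p = 0.27) or in RBPMS KD1 (-0.092 ± 0.14), and quantile normalization moved its P value to -0.63, which did pass.

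The remaining 7 sterol genes were not past both thresholds in any comparison. In P, Ebp (0.97), Cyp51 (0.97), Sqle (0.71), Msmo1 (0.45) and Sc5d (0.12) rose, of which Cyp51, lanosterol demethylase, passed the fold threshold under quantile normalization (1.10). Nsdhl (-0.13) and Hsd17b7 (-0.13), which work together on the methyl groups of the ring, fell in P and in both knockdowns, Hsd17b7 most in RBPMS KD1 (-0.62). In MBNL KD these 7 genes all fell, from -0.18 (Msmo1) to -0.60 (Sc5d). In RBPMS KD1, Sqle, squalene epoxidase, did not pass (-0.067, adjusted p = 0.065, and 0.027 with the replicate number as a block), nor did Ebp (0.15, adjusted p = 0.053). Without D1 replicate 1 or RBPMS KD1 replicate 3 the adjusted p of Sqle was 0.021 or 0.024, and without D1 replicate 2 or RBPMS KD1 replicate 1 that of Ebp was 0.044 or 0.0057. The small falls of Cyp51 (-0.07) and Sc5d (-0.088) in RBPMS KD1 missed the threshold without D1 replicate 3 or RBPMS KD1 replicate 1, and also without RBPMS KD1 replicate 2 for Cyp51 and D1 replicate 2 for Sc5d, at adjusted p of 0.058 to 0.12.

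**Figure D3:**
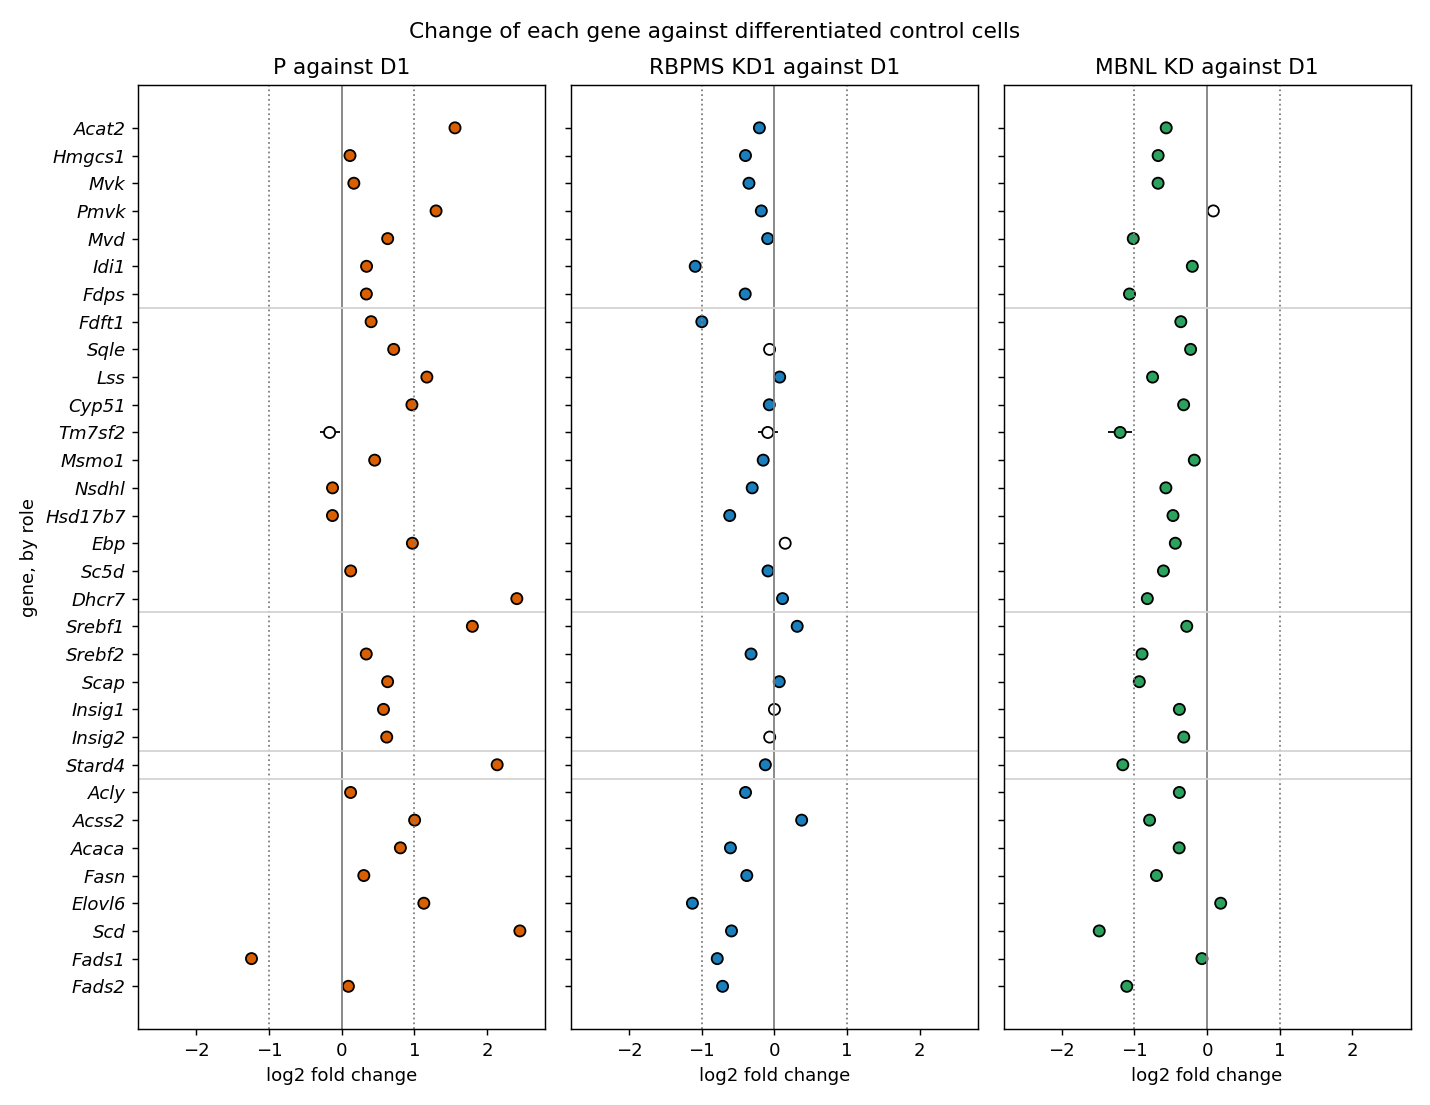
Log2 fold change (x axis) of each of the 32 members (y axis, by role) in P, RBPMS KD1 and MBNL KD against the same D1 libraries, with bars for 1 standard error. Filled points had an adjusted p under 0.05, open points did not, and dotted lines mark log2 fold changes of 1 in either direction. In P the points lie mostly to the right, with Scd, Dhcr7 and Stard4 past 2 and Fads1 alone past the lower line, and in MBNL KD they lie mostly to the left.

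Stard4 carries cholesterol between membranes and is the only transport gene of the list. Its values were 3024, 3067 and 3000 in D1, 13240, 13630 and 13320 in P, 2739, 2727 and 2864 in RBPMS KD1 and 1347, 1262 and 1459 in MBNL KD. P was far above and MBNL KD far below the others, and RBPMS KD1 lay just under D1. Stard4 rose 4.41-fold in P (2.14 ± 0.029, adjusted p = 9.9e-35), fell to 44.8% of D1 in MBNL KD (-1.16 ± 0.048, adjusted p = 4.4e-19) and fell slightly in RBPMS KD1 (-0.12 ± 0.038).

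Fatty acid synthesis starts with acetyl-CoA supply and ends with elongation and desaturation. Of 8 genes, 7 rose and 1 fell in P, 7 fell and 1 rose in RBPMS KD1, and 7 fell and 1 rose in MBNL KD, where of all genes 40.4% rose and 37.6% fell in P, 29.5% fell and 29.5% rose in RBPMS KD1, and 33.7% fell and 33.8% rose in MBNL KD. The median of the 8 was 0.56, -0.60 and -0.54. Scd, stearoyl-CoA desaturase, which places the first double bond, had 5500, 5703 and 5813 in D1, 30240, 32350 and 30840 in P, 3639, 3710 and 3937 in RBPMS KD1 and 2038, 2082 and 1952 in MBNL KD. P lay far above the others, and D1, RBPMS KD1 and MBNL KD followed in that order without overlap. Scd rose 5.47-fold in P (2.45 ± 0.029, adjusted p = 2.4e-36) and fell in RBPMS KD1 (-0.59 ± 0.035) and to 35.7% of D1 in MBNL KD (-1.48 ± 0.037, adjusted p = 1.4e-24). Reads shared with its close relative Scd2 could be split between them by the counting. Scd2 itself had a mean of 147200 in D1 and fell slightly in P (by 0.080 on the log2 scale) and more in MBNL KD (by 0.80).

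Elovl6, which lengthens saturated fatty acids, had 5785, 6544 and 6126 in D1, 13260, 13470 and 13800 in P, 2796, 2708 and 2926 in RBPMS KD1 and 7157, 7088 and 6742 in MBNL KD. P was highest and RBPMS KD1 lowest, and MBNL KD lay above D1 in each library. Elovl6 rose 2.19-fold in P (1.13 ± 0.032), fell to 45.7% of D1 in RBPMS KD1 (-1.13 ± 0.041, adjusted p = 2e-19) and was the only member to rise in MBNL KD (0.19 ± 0.034, adjusted p = 1.9e-05), apart from Pmvk, which passed without D1 replicate 3 (0.13), under quantile normalization (0.16) and with limma (0.15). Between the knockdowns it was 2.48-fold higher in MBNL KD (1.31 ± 0.035, adjusted p = 5.7e-24), the only member past both thresholds in that direction.

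Acss2 makes acetyl-CoA from acetate, and it had 2324, 2171 and 2288 in D1, 4509, 4634 and 4499 in P, 2899, 2910 and 2979 in RBPMS KD1 and 1277, 1251 and 1391 in MBNL KD. P was highest, RBPMS KD1 lay above D1, and MBNL KD lay below. Acss2 rose in P (1.003 ± 0.037), at the edge of the fold threshold: without D1 replicate 2 it was 0.97 and without P replicate 2 0.99. It rose in RBPMS KD1 (0.38 ± 0.041) and fell in MBNL KD (-0.79 ± 0.05), so that MBNL KD held 44.6% of the RBPMS KD1 level (-1.17 ± 0.048, adjusted p = 2.2e-19).

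Fads1 and Fads2 encode the desaturases of polyunsaturated fatty acids. Fads1 had 12790, 13850 and 13170 in D1, 5503, 5757 and 5632 in P, 7420, 7911 and 7725 in RBPMS KD1 and 13190, 12480 and 12200 in MBNL KD. It was lowest in P, then RBPMS KD1, while MBNL KD overlapped D1. Fads1 was the only member to fall past both thresholds in P (42.4% of D1, -1.24 ± 0.03, adjusted p = 1.4e-27) and fell in RBPMS KD1 (-0.79 ± 0.031), and its MBNL KD difference was small (-0.071 ± 0.028, adjusted p = 0.027) and turned to 0.015 under quantile normalization. Without D1 replicate 2, MBNL KD replicate 2 or MBNL KD replicate 3 it missed the threshold, at adjusted p of 0.099 to 0.2. Fads2 had 4814, 5032 and 4952 in D1, 5121, 5345 and 5358 in P, 3002, 3035 and 2978 in RBPMS KD1 and 2293, 2394 and 2183 in MBNL KD. MBNL KD was lowest and RBPMS KD1 next, and P lay just above D1. Fads2 fell to 46.4% of D1 in MBNL KD (-1.10 ± 0.038, adjusted p = 4.7e-21) and to 60.9% in RBPMS KD1 (-0.71 ± 0.035). The 2 desaturase genes changed in different directions in P, although the rise of Fads2 was small (0.092 ± 0.032, adjusted p = 0.011, and 0.094 without D1 replicate 1).

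The first steps of the pathway itself, Acly, Acaca and Fasn, rose in P and fell in both knockdowns. Acaca, acetyl-CoA carboxylase, had means of 14360 ± 251 in D1, 25220 ± 686 in P, 9430 ± 182 in RBPMS KD1 and 10990 ± 435 in MBNL KD (SD, n = 3), with log2 changes of 0.81, -0.61 and -0.38. Fasn, fatty acid synthase, changed by 0.30, -0.38 and -0.70, and its rise in P ran from 0.29 to 0.62 over the alternatives. Acly, which cuts citrate to acetyl-CoA, changed by 0.12, -0.40 and -0.38, and its rise in P ran from 0.10 to 0.31 over the alternatives. Acly did not differ between the knockdowns by the test (0.011 ± 0.028, adjusted p = 0.75). Acaca overlaps 3 other RefSeq genes, and whether its counts are shared with them was not tested.

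The direct comparison of the knockdowns asks which members differ between RBPMS knockdown and knockdown of MBNL1 and MBNL2. Lower in MBNL KD than in RBPMS KD1 past both thresholds were Acss2, Tm7sf2 (-1.11 ± 0.17), Stard4 (-1.04 ± 0.051) and Scap. Dhcr7 (-0.94), Mvd (-0.93), Scd (-0.90), Lss (-0.83) and Fdps (-0.67) were lower by less than the fold threshold. Higher in MBNL KD were Elovl6, Idi1, Fads1 (0.71), Fdft1, Pmvk (0.26), Acaca (0.22) and Hsd17b7 (0.14), the last of which missed the threshold without RBPMS KD1 replicate 2 or 3 or MBNL KD replicate 1 or 2 (adjusted p of 0.066 to 0.2). All 5 regulators were lower in MBNL KD, where 34.5% of all genes were, among them Srebf1 (-0.60) and Srebf2 (-0.58). Msmo1 and Acly did not pass. With limma on the authors' normalised values, the calls of Tm7sf2 (-0.93), Scap (-0.95) and Stard4 (-0.98) were lost on the fold threshold.

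**Figure D4:**
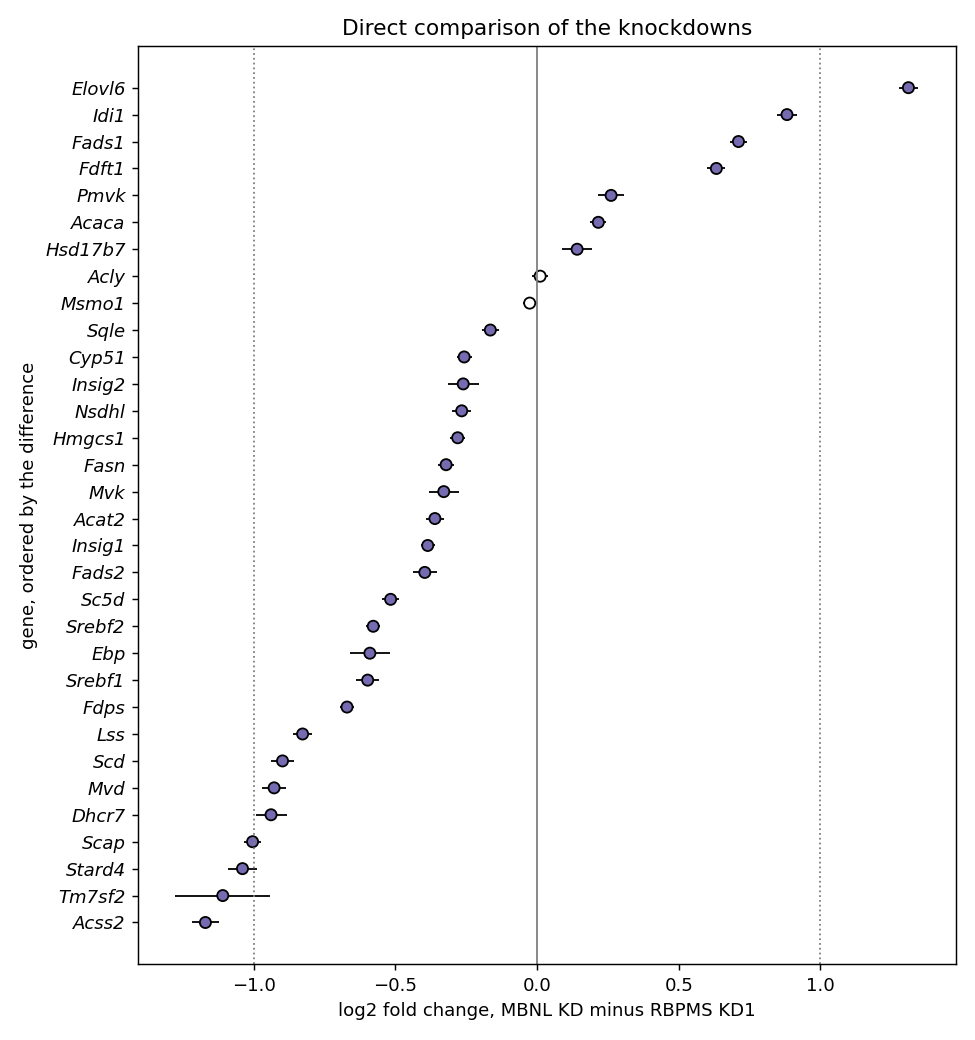
Log2 fold change of MBNL KD minus RBPMS KD1 (x axis) for the 32 members (y axis, ordered by the difference), with bars for 1 standard error and dotted lines at 1 in either direction. Filled points had an adjusted p under 0.05. Acss2 is at the low end and Elovl6 at the high end.

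Other genes of these pathways were counted by list, to be read against all genes tested. Of these, 40.4% rose and 37.6% fell in P, 29.5% rose and 29.5% fell in RBPMS KD1, and 33.8% rose and 33.7% fell in MBNL KD. Past both thresholds, 16.4% rose and 11.2% fell in P. These shares were 3.06% and 1.62% in RBPMS KD1 and 6.1% and 4.14% in MBNL KD. In the list of citrate and NADPH supply, 7 of 8 genes were tested, of which 4 rose and 2 fell in P, 5 fell in RBPMS KD1, and 3 rose and 2 fell in MBNL KD. Slc25a1, the citrate carrier, rose in P (1.31), and Acacb, the mitochondrial carboxylase, went from 10.2 to 15.5 scaled counts in D1 to 399 to 421 in P (4.92). Of 9 isoprenoid branch genes, 3 rose and 4 fell in P, 6 fell in RBPMS KD1, and 3 rose and 1 fell in MBNL KD, with log2 fold changes between -0.50 and 0.81. In P the isoprenoid shares are near those of all genes.

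In the list of fatty acid activation and elongation, Elovl7 had no count in D1 or in the knockdowns and 123.2 to 158 scaled counts in P, so that it passed the filter only through P and had to differ. Of the other 9 genes, 6 rose and 2 fell in P. The 9 include the desaturase gene Scd2, which fell in P and in both knockdowns. Past both thresholds rose Tecr (1.57), the last reductase of elongation, and Elovl5 (1.10), where 16.4% of all genes did. In MBNL KD 4 of the 9 rose and 4 fell, with Tecr alone past both thresholds (-1.17), where 4.14% of all genes fell past both. In RBPMS KD1 1 rose and 6 fell. In the list of sterol export and LXR genes, which work when cholesterol is plentiful, Nr1h3, which encodes the sterol sensor LXR alpha, had 0 to 6.11 in D1 and 60.6 to 68.8 in P, and Abcg1, a cholesterol exporter, had 0 to 2.04 and 11.3 to 22.8. Both passed the filter only in P, where they were high, and had to differ. Of the other 4 tested in P, 3 rose and 1 fell, 2 of 5 tested rose in RBPMS KD1, and 3 of 4 fell in MBNL KD. Mylip, which encodes a ubiquitin ligase, went from 47.4 to 64.2 scaled counts in D1 to 1009 to 1185 in P (4.26). Soat1, which esterifies cholesterol, fell in MBNL KD (-1.04).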

How the data were processed

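Poly(A) RNA-Seq counts of 12 PAC1 libraries, in 4 groups of 3 by their sample labels, were analysed. The counts are those the authors deposited. Reads were subsampled to equal depth, aligned with STAR 2.7.11b to mRatBN7.2 and counted per gene symbol with featureCounts, without normalization. The strand setting and the counting of mates are not given in the sources used here, and the library totals exceed the subsampled depth that the study states. Among low counts, even values outnumbered odd ones in every library, and halved counts were tried as an alternative. The deposited normalised table holds signal values on a linear scale that the authors made by noise correction and quantile normalization. It was used for 1 alternative. No columns of the authors' own comparisons were used. Neither a whole genome sequence nor protein sequences were used.

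Each comparison was fitted in R 4.3.3 with edgeR 4.0.16 on its 6 libraries: filterByExpr, TMM, quasi-likelihood F test, and Benjamini-Hochberg adjustment over all genes tested. Both thresholds were an adjusted p of 0.05 and a log2 fold change of 1 in size, as in the study. The study applied them after noise correction and quantile normalization, and it reported fewer changed genes in each comparison with D1. Each SE was derived from the fold change and F. Alternatives were DESeq2 1.42.0 (its size factors and its test), quantile normalization, limma 3.58.1 on the authors' normalised values, other filters, 1 fit of all 12 libraries, the replicate block, an adjusted p of 0.01, halved counts and the omission of each library. Library totals were 80842635 to 90771289 counts. On simulated counts with 200 genes changed, the procedure was tested before use. The members and lists were chosen with earlier results of these data known. Values in every library are given for members past both thresholds in any comparison, for the member of each role list with the largest change in each comparison with D1, and for the 5 SREBP regulators. Promoter sequences and gene overlaps were taken from RefSeq tables (GRCr8). Python 3.11.15 was used for summaries. The labels and the study's methods give different times for the second transfection and harvest, so no time is stated. The list of SREBP cleavage and INSIG turnover genes is not reported here.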

Additional observations from a re-analysis of the deposited data

How the results depend on the processing

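The members' counts of rises in P and of falls in both knockdowns stayed within 1.5 times of the values given under every alternative run. The median log2 fold change of the members in P was 0.64 under quantile normalization, 0.62 with at least 10 counts in every library and 0.63 with limma on the authors' normalised values. In MBNL KD it was -0.49 and -0.48 under quantile normalization and limma, and between MBNL KD and RBPMS KD1 -0.29 under both. With 1 library left out, the medians ran from -0.24 to -0.16 in RBPMS KD1, -0.59 to -0.56 in MBNL KD and -0.38 to -0.34 between the knockdowns. The number of members that rose in RBPMS KD1 was 2 without the filter or at an adjusted p under 0.01, and 2 to 6 with 1 library left out. In MBNL KD it was 2 under quantile normalization or limma and 1 to 2 with 1 library left out. Between the knockdowns, limma left 1 member lower past both thresholds. Values near 0 changed sign. Insig1 in RBPMS KD1 was -0.0008 with DESeq2's size factors and with DESeq2's test and -0.0032 without the filter, and ran from -0.011 to 0.014 with 1 library left out. Fads1 in MBNL KD was 0.015 under quantile normalization and 0.016 with limma. Acly between the knockdowns ran from -0.027 to 0.028 with 1 library left out. The cause of these changes was not tested.

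With the replicate number as a block, 28 members rose in P, 23 fell in RBPMS KD1 and 30 fell in MBNL KD. The block changed no call other than that of Sqle in RBPMS KD1, and the replicate numbers mark no shared culture in the labels. Over all genes, same-numbered samples had correlations of -0.028 to 0.017. Over the 32 members alone they were 0.16 to 0.69 for P and D1 and -0.47 to 0.39 in the other comparisons. Quantile normalization lowered the share of called genes that were higher from 59.4% to 45.2% in P, from 65.4% to 53.8% in RBPMS KD1 and from 59.6% to 50% in MBNL KD. With limma the share was 50.2% in RBPMS KD1 and 49.5% in MBNL KD. Over all genes, limma called 209 in place of 745 in RBPMS KD1, 784 in place of 1643 in MBNL KD and 1050 in place of 1920 between the knockdowns, and a minimum of 10 counts in every library gave 2933 calls in P in place of 4641. Changes near the fold threshold, as of Acss2, Fdft1, Mvd, Fdps and Scap, depend on the setting.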
